A study of Saccharomyces cerevisiae with 54 samples.

Results

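The comparison described here is the change in messenger RNA between 3 h and 1.5 h in sporulation medium in budding yeast of the SK1 background, a strain used in meiosis research because it sporulates fast and nearly synchronously. It was read from 5 of the 54 samples of the series, those labelled as mRNA of meiotic cells at these times: 2 libraries at 3 h and 3 libraries at 1.5 h. The labels give the strain background, the medium and the time for both groups, and no further genotype or treatment. The series also holds ribosome footprints and total RNA of the same times, and mRNA of an SK1 strain with and without induction of Ndt80, which were used as other readouts of the same genes. One library of each time belongs to a time course with 1 library per time, and the others (1 at 3 h, 2 at 1.5 h) to a set of libraries prepared in parallel. A second mRNA column for 3 h in the parallel table was identical to the first in all 6679 genes, and they were counted as 1 library. The course is named replicate 2 and the parallel 3 h library also carries that number, while only parallel replicate 1 of 1.5 h carries the number 1. The labels do not say whether any of these libraries are of separate cultures, and the p-values here therefore measure the spread between libraries, which may be technical.

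Levels are given in RPKM (reads per kilobase of gene and per unit of library total), so a value is a share of its library and not an amount per cell. Reads recovered from the low values came to 18.6 M and 9.59 M at 3 h, against 9.53 M, 17.6 M and 2.19 M at 1.5 h (the course library first, then the parallel libraries in replicate order, as in every list of values here). The markers of meiotic cells were present in each of the 5 libraries. The summed level of 8 of them (IME1, IME2, HOP1, ZIP1, REC8, SPO11, DMC1 and SAE3) was 24635 and 27515 RPKM at 3 h, against 16927, 16425 and 20178 RPKM at 1.5 h. DMC1 was the largest part of this sum. Of the 8, only ZIP1, SPO11 and SAE3 were called higher at 3 h in the fit described below. In bulk samples, a larger share of cells at a stage and more RNA per cell cannot be told apart.

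As background, diploid yeast that starve for nitrogen on a poor carbon source enter meiosis when the regulator Ime1 switches on early genes. The cells then replicate their DNA, break it with Spo11, pair homologous chromosomes along the synaptonemal complex and repair the breaks as crossovers. Exit from this prophase waits for the transcription factor Ndt80, which switches on the middle genes that run the meiotic divisions and build the spore. Before Ndt80 acts, many middle genes are held off by the repressor Sum1. Meiotic DNA replication and the start of recombination fall early in this programme, and the divisions later.

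Over the 6039 genes whose mean level reached 5 RPKM, 660 were higher at 3 h (10.9%) and 204 were lower (3.38%) in a limma fit with Benjamini-Hochberg adjusted p under 0.05. Of these, 219 rose and 76 fell by at least 2-fold. The median change of all genes was 0.16 on the log2 scale, and with each library centred on its median the counts were 332 higher (5.5%) and 300 lower (4.97%). All 864 called genes moved the same way in the course and in the parallel table, which the joint fit favours, and 22.5% of all genes had opposite signs in the tables. The levels did not overlap between the times for 593 of the 660 genes that rose, where 31% of all genes had both 3 h values above all 1.5 h values. Among the 204 genes that fell, 197 had both 3 h values below all 1.5 h values, against 14% of all genes. Across all 6039 genes the change in the course and in the parallel table had a Pearson r of 0.69, given as a description, since genes are not independent replicates.

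**Figure D1:**
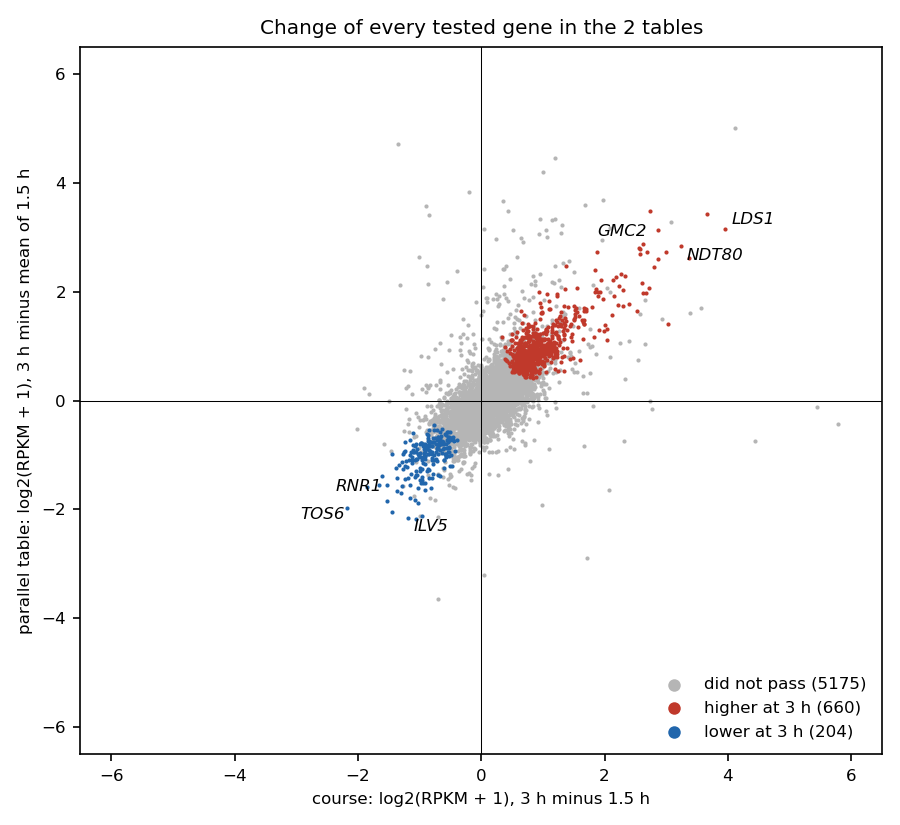
Each point is 1 of the 6039 tested genes, with the log2(RPKM + 1) change from the course libraries on the x axis (1 library at 3 h, 1 at 1.5 h) and from the parallel libraries on the y axis (1 library at 3 h, mean of 2 at 1.5 h). The 660 genes called higher (red) lie at the upper right and the 204 called lower (blue) in the lower left, and grey genes did not pass.

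The count of calls depends on having both tables. Leaving out the course library of 3 h, the course library of 1.5 h or the parallel library of 3 h, so that only 1 table still carries the change, left 12, 20 and 15 called genes, all higher at 3 h. Of the 660 and 204 genes, 10 and 0 were called in every one of the 7 fits that left out 1 library. Those 10 were NDT80, LDS1, LDS2, OSW1, MAM1, SPO74, CDA1, SPR28 and YGL138C and YDL186W, which have no standard name, and they were picked out after their values were seen. A test of the difference between the tables called 0 genes by limma, with 21 genes at an unadjusted p under 0.05. Its 2 residual degrees of freedom came only from the parallel libraries of 1.5 h and 6 h. It could therefore hardly call a difference, and the count of 0 does not show that the tables agree.

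Gene length moved with the change. The median reference length was 705 bases for genes that rose, 1565 bases for genes that fell and 1215 bases for all tested genes. With the genes split by length into 3 equal sets, 21.5% of the shortest set rose and 1.73% fell, and 2.51% of the longest set rose and 4.76% fell. The median change in the shortest set was 0.42 in the course and 0.39 in the parallel table, and in the longest set 0.06 and -0.07. With each library centred within 20 bins of length, an alternative added after seeing the data, 285 genes were higher and 321 lower. Of the genes with a length, 243 of 633 that rose and 192 of 203 that fell were called again. The part of length in the rises was not tested further. Counts with length bins are given below for some gene groups only, and others moved too. With length bins 5 of 21 phosphate and zinc genes fell in place of 2. In lysine, histidine and aromatic synthesis 4 of 28 fell in place of 2. Of the methionine list 1 rose and 5 fell, in place of 2 and 3. In gluconeogenesis, glyoxylate and acetate use 2 fell in place of 0. Of ribosome biogenesis genes 1 rose and 1 fell, in place of 3 and 0.

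**Figure D2:**
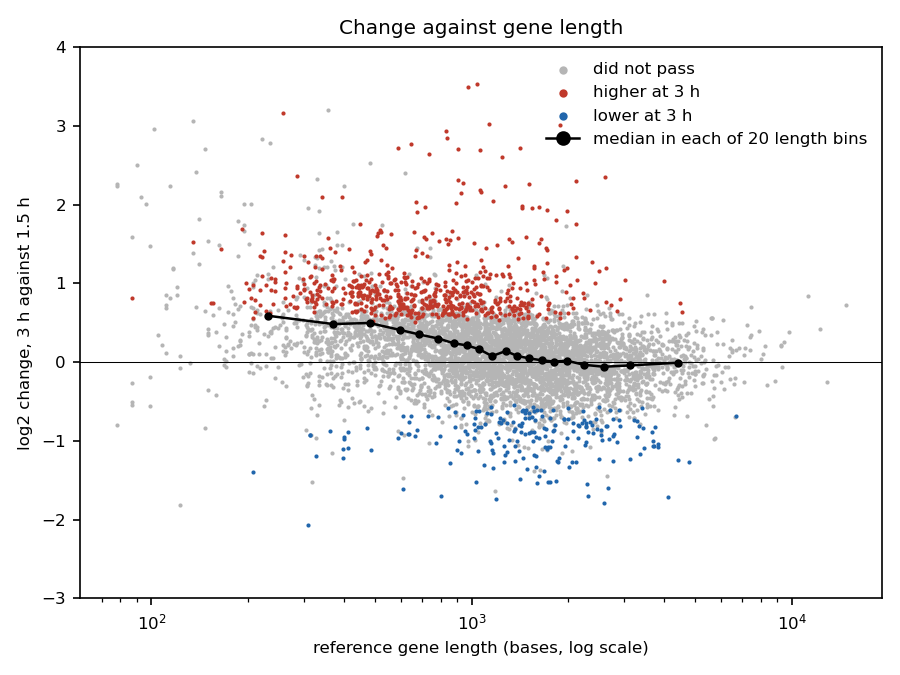
Each point is a tested gene with a reference length (x axis, bases, log scale) and its log2 change of 3 h against 1.5 h (y axis), red where higher, blue where lower and grey where it did not pass. The black line joins the medians of 20 bins of length and falls from the short genes to the long ones, and the largest rises lie far above it.

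Among the 1.5 h libraries, parallel replicate 1 stood apart. Relative to the other 2 libraries of that time it was at least 2-fold higher, beyond the all-gene median, in 232 of all 6039 tested genes. These included 65 of 138 ribosomal protein genes and 5 of 12 genes of leucine, isoleucine and valine synthesis. Its median offset was 0.98 for ribosomal protein genes, 0.78 for those branched-chain genes and 0.73 for glycolysis genes, and -0.46 for axis and synaptonemal complex genes (log2, minus the offset of all genes). The summed level of 4 growth markers (CLN2, NOP1, NSR1 and TDH3) was 4793 and 4100 RPKM at 3 h, against 5240, 8025 and 4553 RPKM at 1.5 h. Most of this sum was TDH3, a glycolysis gene, with 4395, 7079 and 3437 RPKM at 1.5 h. NOP1 and NSR1 in parallel replicate 1 lay between the other libraries of 1.5 h. CLN2 was at 38.8, 43.3 and 33.0 RPKM at 1.5 h. Without this library, 1002 genes were higher and 288 lower at 3 h, and 657 of the 660 and 198 of the 204 genes were called again. Calls thus grew over all genes, and list counts without this library are to be read beside these totals.

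Of the genes with a standard name, NDT80 was the third by size of its rise, after LDS1 and LDS2. Its level was 201 and 224 RPKM at 3 h, against 20.5, 28.8 and 32.3 RPKM at 1.5 h (log2 change 3.01 ± 0.17 SE, adjusted p = 0.000339). Both 3 h libraries lay several-fold above all 3 libraries of 1.5 h. Its level was low beside that of the early regulators: IME1 mRNA, which encodes the activator of early genes, stood at 3719.6 and 3602 RPKM at 3 h, against 3831, 4124 and 4284 RPKM at 1.5 h, and the change did not pass (log2 change -0.15 ± 0.22 SE, adjusted p = 0.697). IME2, a protein kinase that acts with Ime1 and later with Ndt80, had 3427 and 2741 RPKM at 3 h, against 2007, 1803 and 2063 RPKM at 1.5 h. The times did not overlap for IME2, but the change missed the threshold (log2 change 0.62 ± 0.18 SE, adjusted p = 0.0571).

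Among the 15 regulators of meiotic entry, 2 rose and 0 fell, a share of rises near the 10.9% of all genes. The other riser was SLZ1, a subunit of the mRNA methylation complex, with 6118 and 8382 RPKM at 3 h, against 3517, 2709.9 and 3868 RPKM at 1.5 h (log2 change 1.13 ± 0.23 SE, adjusted p = 0.0227). That call was lost with centring and with length bins. Its partners IME4, the methyltransferase, whose annotated antisense RNA RME2 cannot be told apart here, and KAR4 had log2 changes of 0.71 and 0.55 (adjusted p = 0.0562 and 0.0566), and MUM2 one of 0.52 (adjusted p = 0.133). SUM1, the repressor of middle genes, had 121 and 111 RPKM at 3 h, against 168, 125 and 143 RPKM at 1.5 h, and the change did not pass (log2 change -0.35 ± 0.20 SE, adjusted p = 0.258). RIM4, an RNA-binding protein that holds back translation of middle mRNAs, had 6409 and 4521 RPKM at 3 h, against 9481, 4601 and 6566 RPKM at 1.5 h (log2 change -0.40 ± 0.30 SE, adjusted p = 0.403). Its course library at 1.5 h was higher than both 3 h libraries, and the lowest of the 1.5 h libraries lay between them. UME6, the DNA-binding partner of Ime1, had a log2 change of 0.01.

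The genes that make the meiotic double-strand breaks fell into risers and a group that did not pass. SPO11, the enzyme that cuts the DNA, had 648 and 547 RPKM at 3 h, against 228, 168 and 228 RPKM at 1.5 h (log2 change 1.49 ± 0.17 SE, adjusted p = 0.00576). Every 3 h value was more than 2-fold above every 1.5 h value. REC104, MEI4 and REC102, also of the break machinery, rose by 1.09 ± 0.16 SE (adjusted p = 0.0101), 1.09 ± 0.17 SE (adjusted p = 0.0121) and 1.00 ± 0.19 SE (adjusted p = 0.0183). REC114, which acts with Mei4, had 631 and 540 RPKM at 3 h, against 448, 289.7 and 363 RPKM at 1.5 h, and its change of 0.63 did not pass (adjusted p = 0.123). REC107, the partner of both whose transcript is spliced in meiosis, had 437 and 425 RPKM at 3 h, against 528, 307 and 450.4 RPKM at 1.5 h, with the 3 h values within the range of the 1.5 h values. The break-processing genes MRE11, RAD50, XRS2 and SAE2, which also serve dividing cells, had log2 changes of 0.08, 0.23, 0.27 and -0.01, and none passed. In all 5 of 11 rose (SKI8 was the last), where 10.9% of all genes did, with 4 under centring and 4 with length bins. The median lay 0.42 above that of all genes.

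Of the prophase genes listed, GMC2 rose most, and with it other genes of the synaptonemal complex, the zipper that joins paired chromosomes. GMC2 encodes a factor that works with Ecm11 in its central region, and its level was 1294 and 1443 RPKM at 3 h, against 209, 134 and 286 RPKM at 1.5 h (log2 change 2.77 ± 0.30 SE, adjusted p = 0.00465). ECM11 had 1897 and 2699 RPKM at 3 h, against 751, 639 and 1012 RPKM at 1.5 h (log2 change 1.57 ± 0.25 SE, adjusted p = 0.0119). ZIP1, the transverse filament itself, had 1028 and 1156 RPKM at 3 h, against 495, 411 and 536 RPKM at 1.5 h (log2 change 1.19 ± 0.19 SE, adjusted p = 0.0126). For all of these the lowest 3 h value lay above the highest 1.5 h value. For the chromosome axis no change passed in its main proteins. HOP1, which loads along the axis before pairing, had 2157 and 2007 RPKM at 3 h, against 1912, 1806 and 2200.4 RPKM at 1.5 h (log2 change 0.08 ± 0.18 SE, adjusted p = 0.806). REC8, the meiotic cohesin subunit, had 1607 and 1521 RPKM at 3 h, against 1457, 1463 and 1774 RPKM at 1.5 h (log2 change 0.01 ± 0.21 SE, adjusted p = 0.977). In both the times overlapped. RED1, which binds Hop1 on the axis, had a log2 change of 0.65 (adjusted p = 0.228), and the axis-bound kinase MEK1 rose by 0.91 ± 0.22 SE (adjusted p = 0.0326), a call lost with centring. Of the 10 genes 4 rose and 0 fell, where 10.9% of all genes rose.

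Crossover genes of the ZMM group, which turn breaks into crossovers within the synaptonemal complex, rose in part. ZIP2 had 289 and 255 RPKM at 3 h, against 82.9, 56.6 and 103 RPKM at 1.5 h (log2 change 1.75 ± 0.29 SE, adjusted p = 0.0134), with no overlap between the times. The annotation has RME3 overlapping ZIP2, and the strand counted is not given, so reads of the pair cannot be told apart. SPO22, also known as ZIP4, had 1150.2 and 1012 RPKM at 3 h, against 529, 435 and 607 RPKM at 1.5 h (log2 change 1.04 ± 0.20 SE, adjusted p = 0.0182). MSH4 and SPO16 rose by 0.77 ± 0.20 SE (adjusted p = 0.0415) and 0.71 ± 0.17 SE (adjusted p = 0.0326), calls that centring ended, while MSH5, the partner of Msh4, had a log2 change of 0.62 (adjusted p = 0.0759). HFM1, the helicase also called Mer3, had a log2 change of 0.61 and CST9, also called Zip3, one of 0.37, and neither passed. The repair genes EXO1, MUS81 and MMS4, which are not specific to meiosis, had log2 changes of -0.05, -0.04 and -0.45, and none passed. The count was 4 of 12 higher and 0 lower, where 10.9% of all genes were higher.

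Strand exchange genes rose in part. DMC1, the meiotic recombinase, had 9007 and 10797 RPKM at 3 h, against 5812, 5065 and 7064 RPKM at 1.5 h, and its change missed the threshold although the times did not overlap (log2 change 0.76 ± 0.22 SE, adjusted p = 0.0565). Its accessory factors rose: SAE3 had 3041 and 5144 RPKM at 3 h, against 1186, 1585 and 2029 RPKM at 1.5 h (log2 change 1.45 ± 0.18 SE, adjusted p = 0.00616), and MEI5, the other subunit of that complex, had 2478 and 4064 RPKM at 3 h, against 952, 1205 and 1806 RPKM at 1.5 h (log2 change 1.43 ± 0.23 SE, adjusted p = 0.012). In both the parallel libraries were higher than the course library of the same time. HED1, a meiosis-specific regulator of strand exchange, and RAD52 rose by 0.91 ± 0.20 SE (adjusted p = 0.0274) and 0.72 ± 0.15 SE (adjusted p = 0.0231), and both calls were lost with centring. In all 4 of 10 rose, where 10.9% of all genes did, with 2 under centring and 2 with length bins.

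**Figure D3:**
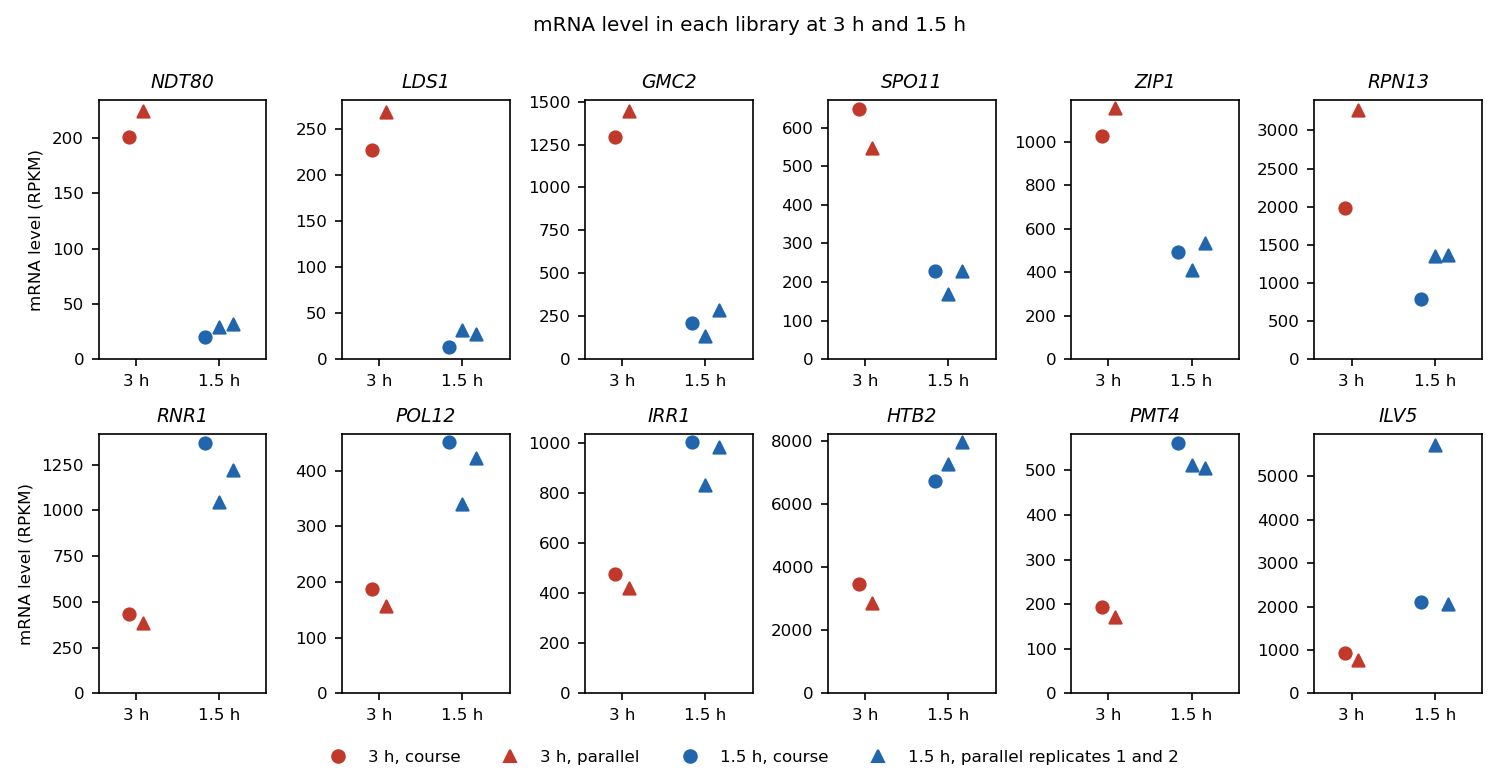
Levels in RPKM (y axis from 0, scaled per gene) of 6 genes that rose (top) and 6 that fell (bottom), with the 2 libraries of 3 h in red on the left and the 3 of 1.5 h in blue on the right of each panel (circles for the course, triangles for the parallel table). The 3 h and 1.5 h values do not overlap in any panel, and ILV5 shows 1 library of 1.5 h far above the other 2.

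Many of the listed middle genes, which Ndt80 switches on later, were higher at 3 h, where 10.9% of all genes were. Of 35 middle genes of the divisions and the spore membrane, 23 rose and 1 fell, with 20 and 1 under centring and 23 and 1 with length bins. The median change lay 1.11 above that of all genes. LDS1, a lipid droplet protein of the forming spore, had 227 and 268 RPKM at 3 h, against 13.7, 32.2 and 26.9 RPKM at 1.5 h (log2 change 3.49 ± 0.21 SE, adjusted p = 0.000339). Its paralog LDS2 had 242 and 250 RPKM at 3 h, against 32.3, 23.6 and 32.5 RPKM at 1.5 h (log2 change 3.02 ± 0.19 SE, adjusted p = 0.000349). MAM1, the monopolin subunit that makes sister kinetochores face the same pole, had 123 and 235 RPKM at 3 h, against 19.9, 27.7 and 38.7 RPKM at 1.5 h (log2 change 2.70 ± 0.19 SE, adjusted p = 0.000537). For LDS1 and LDS2 every 3 h value was several-fold above the highest 1.5 h value.

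Other middle genes moved the same way from lower levels. SMA1, needed for the spore membrane, had 54.6 and 84.4 RPKM at 3 h, against 8.33, 14.7 and 10.1 RPKM at 1.5 h (log2 change 2.64 ± 0.20 SE, adjusted p = 0.000793), and SPO74, of the meiotic plaque of the spindle pole body, had 98.8 and 116 RPKM at 3 h, against 13.3, 19.9 and 20.9 RPKM at 1.5 h (log2 change 2.60 ± 0.16 SE, adjusted p = 0.000339). The sporulation septins SPR28 and SPR3 rose by 2.24 ± 0.14 SE (adjusted p = 0.000349) and 1.96 ± 0.16 SE (adjusted p = 0.00143), and SMK1, the sporulation kinase, by 2.04 ± 0.21 SE (adjusted p = 0.00375). For SPS2, parallel replicate 1 was the highest library of 1.5 h, with 110.2 and 139.9 RPKM at 3 h, against 17.1, 66.1 and 17.96 RPKM at 1.5 h (log2 change 2.26 ± 0.47 SE, adjusted p = 0.0235). For some regulators of the divisions no change passed. CDC5, the polo kinase, had 116 and 105 RPKM at 3 h, against 67.5, 66.6 and 79.2 RPKM at 1.5 h (log2 change 0.63 ± 0.18 SE, adjusted p = 0.0583). The B-type cyclins CLB1 and CLB3 had log2 changes of 0.30 and -0.28 (adjusted p = 0.297 and 0.282). CLB6, a cyclin of DNA replication that is also induced in middle meiosis, was the 1 member that fell, with 50.6 and 57.2 RPKM at 3 h, against 109, 97.8 and 125 RPKM at 1.5 h (log2 change -1.01 ± 0.19 SE, adjusted p = 0.0181).

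Spore wall genes were the list with the highest median, 1.27 above all genes. Of 18 members 11 rose in each of the plain, the centred and the length-binned fits. In the plain fit 10.9% of all genes rose. LDS1 and LDS2 are also counted here. OSW1, needed for the outer wall, had 52.5 and 64.97 RPKM at 3 h, against 5.67, 9.096 and 8.85 RPKM at 1.5 h (log2 change 2.84 ± 0.16 SE, adjusted p = 0.000339). GAS4, which elongates the glucan layer, had 113 and 124 RPKM at 3 h, against 14.6, 31.7 and 12.1 RPKM at 1.5 h (log2 change 2.71 ± 0.36 SE, adjusted p = 0.00769). CDA1 and CDA2, the chitin deacetylases that make chitosan, rose by 2.31 ± 0.14 SE (adjusted p = 0.000339) and 2.27 ± 0.25 SE (adjusted p = 0.00496). For none of these did the 3 h and 1.5 h levels overlap. The dityrosine genes DIT1 and DIT2, which act last in wall building, did not pass. DIT1 had 47.4 and 52.5 RPKM at 3 h, against 50.5, 44.4 and 57.4 RPKM at 1.5 h (adjusted p = 0.986). DIT2 had 22.1 and 31.4 RPKM at 3 h, against 17.6, 10.2 and 28.2 RPKM at 1.5 h (adjusted p = 0.32). SPS100, a late wall gene, had 108 and 81.2 RPKM at 3 h, against 126, 84.8 and 92.2 RPKM at 1.5 h, with overlapping times. The summed level of 4 spore stage markers (CDA1, DIT1, DIT2 and SPS100) was 339 and 382 RPKM at 3 h, against 225, 185 and 219.9 RPKM at 1.5 h, and CDA1 was the only one of the 4 to pass.

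Members of the proteasome, the complex that degrades ubiquitin-tagged proteins, rose in most cases. Of 37 genes 22 rose and 0 fell, against 10.9% of all genes higher, with 11 under centring and 15 with length bins. The median lay 0.53 above all genes, and every member had a positive change, the range being 0.17 (BLM10, an alternative cap) to 1.29 (RPN13). RPN13, a ubiquitin receptor of the regulatory particle, had 1984 and 3273 RPKM at 3 h, against 795, 1347 and 1366 RPKM at 1.5 h (log2 change 1.29 ± 0.15 SE, adjusted p = 0.00576). PRE9, a subunit of the core particle, had 2739 and 3043 RPKM at 3 h, against 1426, 1482 and 1504 RPKM at 1.5 h (log2 change 0.99 ± 0.15 SE, adjusted p = 0.0116). In RPN13 the parallel libraries were higher at both times, and for both genes the times did not overlap. RPN4, the transcription factor of proteasome genes, rose by 0.59 ± 0.15 SE (adjusted p = 0.0395).

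Chaperone genes rose in 10 of 28 cases and fell in 0, where 10.9% of all genes rose. Under centring 5 rose, where 5.5% of all genes did, and with length bins 8 rose. HSC82, the constitutive Hsp90, had 5972 and 6353 RPKM at 3 h, against 2345, 2027 and 3130.4 RPKM at 1.5 h (log2 change 1.34 ± 0.23 SE, adjusted p = 0.0146), and its inducible copy HSP82 had 4623 and 5337 RPKM at 3 h, against 2460.4, 1866 and 3155 RPKM at 1.5 h (log2 change 1.04 ± 0.28 SE, adjusted p = 0.049). These copies are nearly alike in sequence, so how reads were shared between them is uncertain. SSA3, a stress-inducible Hsp70, rose by 1.17 ± 0.17 SE (adjusted p = 0.0111) and the co-chaperones SIS1 and CPR6 by 1.15 ± 0.26 SE (adjusted p = 0.0276) and 1.07 ± 0.20 SE (adjusted p = 0.0177). Parallel replicate 1 of 1.5 h was the lowest library for SSA2, with 966 and 789 RPKM at 3 h, against 701, 168 and 668 RPKM at 1.5 h, and this change did not pass (adjusted p = 0.281). Without that library 12 chaperone genes rose, and the median was 0.19 above all genes in place of 0.40.

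**Figure D4:**
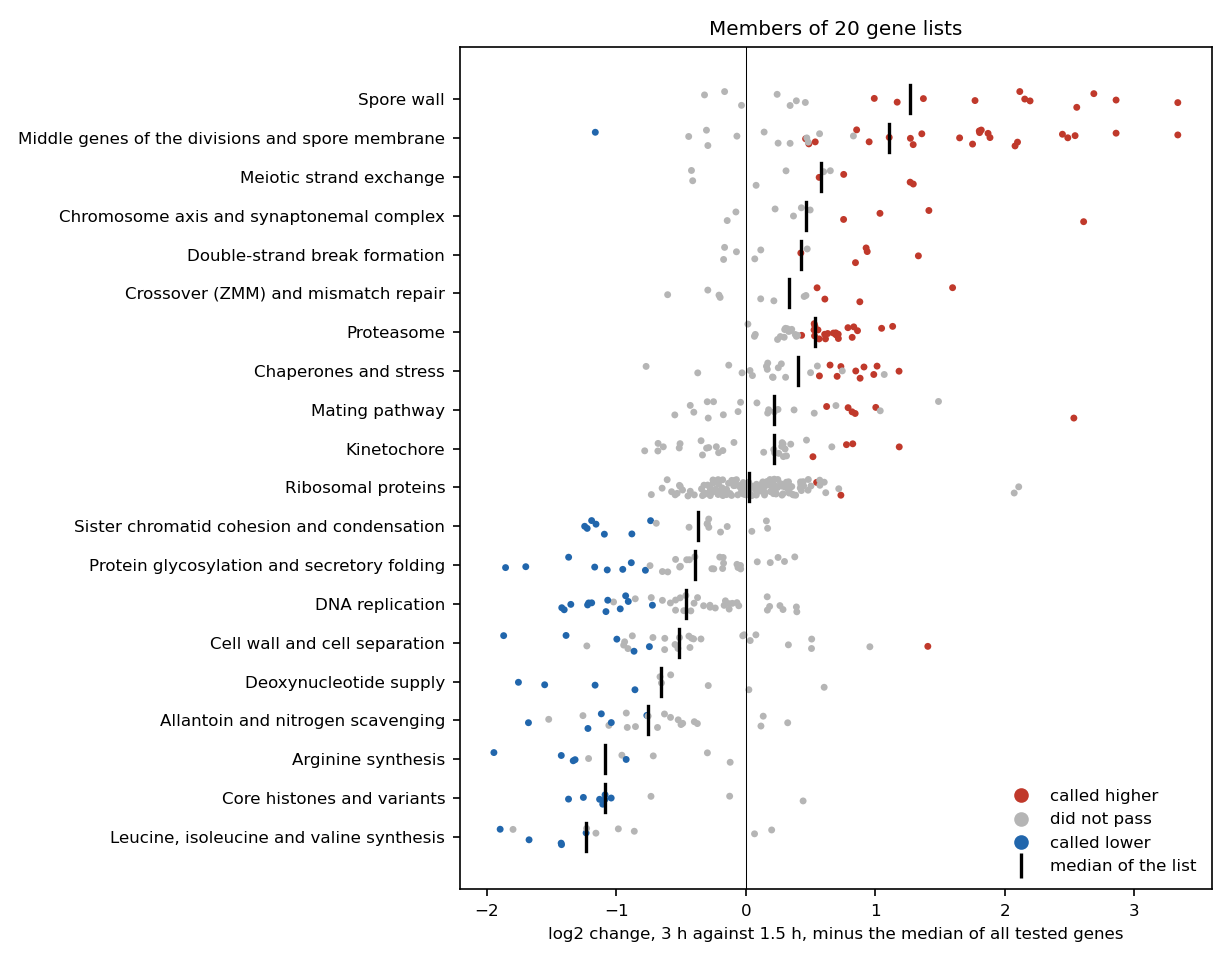
Each point is 1 member of 1 of 20 gene lists, placed by its log2 change of 3 h against 1.5 h minus the median of all tested genes (x axis), red where called higher, blue where called lower and grey where it did not pass, with a black bar at the median of the list. Medians run from 1.27 for spore wall genes at the top to -1.23 for leucine, isoleucine and valine synthesis at the bottom.

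The genes that fell included the machinery of DNA replication. Of 43 replication genes 12 fell and 0 rose, against 3.38% of all genes lower, and the median lay at -0.46 relative to that of all genes. With length bins 15 fell and 1 rose. POL12 and POL1, of the polymerase that starts each strand, both fell. POL12 had 187 and 157 RPKM at 3 h, against 451, 341 and 423 RPKM at 1.5 h (log2 change -1.26 ± 0.16 SE, adjusted p = 0.00743). POL1 had 199.7 and 189 RPKM at 3 h, against 504, 361 and 511 RPKM at 1.5 h (log2 change -1.25 ± 0.23 SE, adjusted p = 0.0158). PRI2, the primase subunit of the same complex, had 306 and 276 RPKM at 3 h, against 641, 642 and 719 RPKM at 1.5 h (log2 change -1.19 ± 0.15 SE, adjusted p = 0.00743). Each was more than 1.5-fold lower in both 3 h libraries than in any 1.5 h library. Further falls were those of POL30, the sliding clamp, at a log2 change of -1.03 ± 0.15 SE (adjusted p = 0.00954), CDC45, of the replicative helicase, at -1.07 ± 0.15 SE (adjusted p = 0.00954), and the ligase CDC9, at -1.06 ± 0.20 SE (adjusted p = 0.0176). Not all helicase subunits passed: MCM3 and MCM7 passed (-0.81 and -0.92), while MCM2, MCM4, MCM5 and MCM6 had log2 changes of -0.27, -0.31, -0.39 and -0.22 and did not. Origin recognition genes ORC1, ORC3 and ORC6 had positive changes of 0.55, 0.42 and 0.44 that did not pass, and ORC5 fell, at -0.77 ± 0.20 SE (adjusted p = 0.0415).

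Genes of deoxynucleotide supply fell in 4 of 10 cases, where 3.38% of all genes fell. RNR1 encodes the large subunit of ribonucleotide reductase, and it had 433 and 383 RPKM at 3 h, against 1366, 1048 and 1219 RPKM at 1.5 h (log2 change -1.60 ± 0.19 SE, adjusted p = 0.00615). Both 3 h values lay far below all 1.5 h values. CDC21, which makes thymidylate, had 346 and 354 RPKM at 3 h, against 695, 627 and 809 RPKM at 1.5 h (log2 change -1.01 ± 0.17 SE, adjusted p = 0.0127). HUG1, an inhibitor of the reductase, fell, at -1.40 ± 0.27 SE (adjusted p = 0.0187), and parallel replicate 1 was its lowest 1.5 h library. The small subunits RNR2 and RNR4 had log2 changes of -0.42 and -0.13 and did not pass, and SML1, another inhibitor, had a log2 change of 0.76 (adjusted p = 0.0756). No member rose.

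Core histones, made in step with DNA replication, fell in 7 of 10 genes, where 3.38% of all genes fell. The median of the list was -1.09 from all genes. HTB2 had 3459.5 and 2866 RPKM at 3 h, against 6714, 7247 and 7946 RPKM at 1.5 h (log2 change -1.21 ± 0.20 SE, adjusted p = 0.0127). HTA2 had 2189 and 2432 RPKM at 3 h, against 4344, 4593 and 4877 RPKM at 1.5 h (log2 change -0.97 ± 0.17 SE, adjusted p = 0.0138), and HHF1 had 8998 and 9026 RPKM at 3 h, against 16326, 16865 and 18955 RPKM at 1.5 h (log2 change -0.93 ± 0.18 SE, adjusted p = 0.019). The times did not overlap in any of these. HHT1 had 6144 and 9872 RPKM at 3 h, against 10972, 11972 and 13784 RPKM at 1.5 h, a change of -0.58 that did not pass (adjusted p = 0.0997). The pairs of copies of each core histone are nearly identical in their coding sequence, so the split of reads between copies is uncertain, though all 7 that passed fell. The variant HTZ1 and the linker histone HHO1, which are not tied to replication in the same way, had log2 changes of 0.60 and 0.03 and did not pass. These genes are short, and with length bins 8 of 10 fell.

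Cohesin subunits of the ring shared by mitosis and meiosis fell, while no change passed for the meiotic subunit REC8, described above. SMC1 had 400.1 and 399 RPKM at 3 h, against 891, 678 and 946 RPKM at 1.5 h (log2 change -1.07 ± 0.25 SE, adjusted p = 0.0309) and SMC3 had 368 and 311 RPKM at 3 h, against 692, 595 and 716 RPKM at 1.5 h (log2 change -1.0 ± 0.20 SE, adjusted p = 0.0201). IRR1, the subunit also called Scc3, had 477 and 421 RPKM at 3 h, against 1004, 829 and 981 RPKM at 1.5 h (log2 change -1.09 ± 0.18 SE, adjusted p = 0.0126), and PDS5, a ring regulator, had 365 and 447 RPKM at 3 h, against 809, 772 and 968 RPKM at 1.5 h (log2 change -1.03 ± 0.20 SE, adjusted p = 0.0177). Every 3 h value of these lay below every 1.5 h value. MCD1, the mitotic counterpart of Rec8, stood at 47.7 and 56.5 RPKM at 3 h, against 102, 101 and 101 RPKM at 1.5 h (log2 change -0.94 ± 0.19 SE, adjusted p = 0.0228), far under REC8 per length at both times. ECO1, which acetylates cohesin in S phase, and RAD61, which releases it, fell as well, at -0.58 ± 0.15 SE (adjusted p = 0.0436) and -0.72 ± 0.17 SE (adjusted p = 0.031). The condensin genes SMC2, SMC4, BRN1, YCS4 and YCG1 had log2 changes of -0.28, -0.13, -0.14, -0.53 and 0.33, and none passed. The list count was 7 lower of 18, and 0 higher, where 3.38% of all genes were lower.

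Checkpoint genes split. MRC1 and TOF1, which travel with replication forks, fell, at -0.95 ± 0.20 SE (adjusted p = 0.0231) and -1.07 ± 0.27 SE (adjusted p = 0.0391). MEK1, counted above, and MEC3, part of the damage clamp, rose, MEC3 by 0.76 ± 0.16 SE (adjusted p = 0.0218). The kinetochore list had 4 of 31 higher, a share near the 10.9% of all genes, and 0 lower. Its median lay 0.22 above all genes, and with centring 3 rose and 2 fell. Of the members that rose, OKP1 belongs to the inner kinetochore, and DAD4, DAD3 and SPC19 are short genes of the Dam1 ring that holds microtubules, and none of these last calls held with length bins, where 2 of the list rose and 3 fell, while without parallel replicate 1 of 1.5 h 6 rose and 1 fell. DAD4 had 990.1 and 957 RPKM at 3 h, against 497, 424 and 233 RPKM at 1.5 h, and DAD3 had 216 and 405 RPKM at 3 h, against 121, 199 and 201 RPKM at 1.5 h. The times did not overlap in either. NDC80, the outer kinetochore gene known for a longer transcript isoform in early meiosis, had 693 and 712 RPKM at 3 h, against 454, 407 and 514 RPKM at 1.5 h, without overlap, and did not pass (log2 change 0.63 ± 0.21 SE, adjusted p = 0.0877). Among 17 cyclins and G1/S regulators CLB6 fell and CLB2, a mitotic cyclin, rose, with 54.8 and 48.6 RPKM at 3 h, against 25.03, 23.04 and 27.1 RPKM at 1.5 h (log2 change 1.01 ± 0.24 SE, adjusted p = 0.0332), a call lost with centring.

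Amino acid synthesis genes made up another block of falls, in which 1 library weighed on the values. ARG56, which encodes 2 enzymes of arginine synthesis, had 388 and 333 RPKM at 3 h, against 1064, 1831 and 1027 RPKM at 1.5 h (log2 change -1.79 ± 0.27 SE, adjusted p = 0.0113). ILV5, of branched-chain synthesis, had 922 and 771 RPKM at 3 h, against 2106, 5725 and 2058 RPKM at 1.5 h (log2 change -1.74 ± 0.42 SE, adjusted p = 0.0332), and ILV3 had 265 and 214 RPKM at 3 h, against 537, 1281 and 495 RPKM at 1.5 h (log2 change -1.52 ± 0.41 SE, adjusted p = 0.0469). Both 3 h values lay below all 1.5 h values, and parallel replicate 1 was the highest library in each. Where 3.38% of all genes fell, 5 of 10 arginine genes and 5 of 12 branched-chain genes did, and 0 rose in either. Without parallel replicate 1, 6 and 8 fell, and the medians were -0.95 and -1.09 from all genes, in place of -1.09 and -1.23. BAT1, a branched-chain transaminase, had 319 and 292 RPKM at 3 h, against 633, 2535 and 647 RPKM at 1.5 h and did not pass (log2 change -1.64 ± 0.54 SE, adjusted p = 0.0816).

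In the methionine list 3 of 31 fell and 2 rose, where 3.38% of all genes fell and 10.9% rose. MET6, methionine synthase, had 244 and 149 RPKM at 3 h, against 507, 1006 and 458 RPKM at 1.5 h (log2 change -1.70 ± 0.37 SE, adjusted p = 0.027), and HOM3, aspartate kinase, fell at -1.33 ± 0.33 SE (adjusted p = 0.0383). MUP1, the methionine permease, rose, with 355 and 358 RPKM at 3 h, against 128, 183 and 151 RPKM at 1.5 h (log2 change 1.26 ± 0.19 SE, adjusted p = 0.0109). Lysine, histidine and aromatic synthesis had 2 of 28 lower and a median of -0.58 from all genes. ARO1, of the aromatic pathway, fell at -1.26 ± 0.19 SE (adjusted p = 0.0113) and LYS20, homocitrate synthase, at -0.78 ± 0.20 SE (adjusted p = 0.0395). Among permeases, GNP1, a glutamine permease, rose and BAP2, a branched-chain permease, fell. GNP1 had 633 and 599.8 RPKM at 3 h, against 161, 139.7 and 190 RPKM at 1.5 h (log2 change 1.91 ± 0.20 SE, adjusted p = 0.00375), and BAP2 had 70.5 and 66.1 RPKM at 3 h, against 149, 352 and 162 RPKM at 1.5 h (log2 change -1.51 ± 0.33 SE, adjusted p = 0.027). For both the times did not overlap. Without parallel replicate 1 of 1.5 h, 3 of 18 permease genes rose and 2 fell.

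Nitrogen scavenging genes, which starved cells use to draw on poor nitrogen sources, fell in 5 of 23 cases and rose in 0. Of all genes 3.38% fell. DAL2, an enzyme of allantoin breakdown, had 450.4 and 470.5 RPKM at 3 h, against 1106, 1684 and 1377 RPKM at 1.5 h (log2 change -1.52 ± 0.23 SE, adjusted p = 0.0116). GAT1, an activator of these genes, had 863 and 709 RPKM at 3 h, against 1615, 1336 and 1251 RPKM at 1.5 h (log2 change -0.88 ± 0.18 SE, adjusted p = 0.0215), and GDH1, glutamate dehydrogenase, had 3081 and 2690.3 RPKM at 3 h, against 5818, 7040.1 and 5219 RPKM at 1.5 h (log2 change -1.06 ± 0.19 SE, adjusted p = 0.0164). The times were separate for each. DAL5, the allantoate permease, had 738 and 693 RPKM at 3 h, against 1247, 4612 and 1305 RPKM at 1.5 h, and with parallel replicate 1 so far above the rest it did not pass (adjusted p = 0.106). Without that library 8 of the list fell, and its median was -0.46 from all genes in place of -0.76.

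Genes of the secretory pathway and cell wall fell in part. DPM1, which makes the mannose donor for glycosylation, had 481 and 358 RPKM at 3 h, against 1740.4, 897 and 1287 RPKM at 1.5 h (log2 change -1.70 ± 0.21 SE, adjusted p = 0.00615). PMT4, a protein mannosyltransferase, had 195 and 172 RPKM at 3 h, against 561, 512 and 505 RPKM at 1.5 h (log2 change -1.54 ± 0.14 SE, adjusted p = 0.00194), with the 3 libraries of 1.5 h close together. Other falls were those of SEC61, the translocation channel, at -1.21 ± 0.24 SE (adjusted p = 0.021), HAC1, the factor of the unfolded protein response, at -0.91 ± 0.19 SE (adjusted p = 0.0227), and STT3, the catalytic oligosaccharyltransferase subunit, at -0.79 ± 0.17 SE (adjusted p = 0.0266). In that list 8 of 33 fell (11 with length bins) and 0 rose, where 3.38% of all genes fell. KAR2, the luminal Hsp70, had a change of -0.02. For cell wall genes 5 of 30 fell and 1 rose. FLO11, a flocculin, had 1023 and 539 RPKM at 3 h, against 2951, 2855 and 1329 RPKM at 1.5 h (log2 change -1.71 ± 0.31 SE, adjusted p = 0.0164). CWP1, a mannoprotein of the wall, was the 1 that rose, with 1946 and 1509 RPKM at 3 h, against 515, 792 and 475 RPKM at 1.5 h (log2 change 1.56 ± 0.27 SE, adjusted p = 0.0146).

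Some of the largest changes were those of single genes outside these groups. SHH3, a protein related to a subunit of succinate dehydrogenase, had 101 and 125 RPKM at 3 h, against 14.8, 24.9 and 12.9 RPKM at 1.5 h (log2 change 2.72 ± 0.37 SE, adjusted p = 0.00809). CYC7, the minor isoform of cytochrome c, had 2969.8 and 4572 RPKM at 3 h, against 768, 878 and 1103 RPKM at 1.5 h (log2 change 2.10 ± 0.19 SE, adjusted p = 0.00172), and COX5B, the minor isoform of a cytochrome oxidase subunit, had 449 and 439 RPKM at 3 h, against 202, 175 and 179.9 RPKM at 1.5 h (log2 change 1.24 ± 0.15 SE, adjusted p = 0.00576). The respiratory chain list as a whole had 4 of 34 higher, a share near the 10.9% of all genes, and 0 lower. Its median was -0.06 from all genes. With centring 3 were higher and 2 lower, and with length bins 2 and 3. Without parallel replicate 1 of 1.5 h, 7 of this list rose and 1 fell. Among called genes TOS6 had the largest fall, with 56.8 and 36.6 RPKM at 3 h, against 261, 106 and 204 RPKM at 1.5 h (log2 change -2.06 ± 0.37 SE, adjusted p = 0.0152). SUC2, invertase, had 1881 and 1311 RPKM at 3 h, against 4826, 3992 and 4376 RPKM at 1.5 h (log2 change -1.54 ± 0.17 SE, adjusted p = 0.00465), and HXT2, a hexose transporter, had 1239 and 1274 RPKM at 3 h, against 3026, 4379 and 3255 RPKM at 1.5 h (log2 change -1.45 ± 0.19 SE, adjusted p = 0.00743). Among sugar genes HXT14 and GAL7 rose by 1.51 ± 0.25 SE (adjusted p = 0.0128) and 1.15 ± 0.19 SE (adjusted p = 0.0126). AUA1 was near the floor, with 4.91 and 7.97 RPKM at 3 h, against 0.611, 0.837 and 0 RPKM at 1.5 h, and overlaps WWM1 in the annotation. Its call ended with centring and with length bins.

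Mating genes rose in 6 of 25 cases and fell in 0, where 10.9% of all genes rose. The count was 3 with centring, 4 with length bins and 9 without parallel replicate 1 of 1.5 h. The other readouts did not show this rise. In footprints 0 of 20 tested members rose and 2 fell, and in total RNA the list median was -0.03 from all genes. PRM6, a potassium transporter known from pheromone response, had 16.1 and 19.5 RPKM at 3 h, against 1.88, 2.75 and 1.37 RPKM at 1.5 h (log2 change 2.69 ± 0.33 SE, adjusted p = 0.00633), and FAR1, which arrests the cell cycle in mating, had 40.9 and 50.1 RPKM at 3 h, against 19.5, 23.1 and 18.02 RPKM at 1.5 h (log2 change 1.16 ± 0.26 SE, adjusted p = 0.0272). The alpha cell receptor STE3 had 45.7 and 45.5 RPKM at 3 h, against 24.8, 28.2 and 17.2 RPKM at 1.5 h (log2 change 0.95 ± 0.26 SE, adjusted p = 0.0497), and STE2, the receptor of a cells, had 58.5 and 49.6 RPKM at 3 h, against 42.9, 77.8 and 63.2 RPKM at 1.5 h and did not pass. Diploid cells repress most of these genes. The summed level of 5 markers of haploid cells (STE2, STE3, MFA1, MFA2 and BAR1) was 1634 and 1396 RPKM at 3 h, against 708, 1154 and 639 RPKM at 1.5 h, with 1 of the 5 (STE3) called and none at 0. Its part in these rises was not tested.

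Autophagy and vacuole genes had 4 of 29 higher (ATG12, ATG16 and ATG7 by 0.69, 0.67 and 0.63 among them) and 2 lower, of which CPS1, a vacuolar carboxypeptidase, fell, at -1.52 ± 0.35 SE (adjusted p = 0.0309). Of all genes, 10.9% were higher and 3.38% lower. With centring 0 of this list were higher and 4 lower, and with length bins 2 and 3. Of the anaphase promoting complex 2 of 16 genes rose, SWM1, needed for sporulation, by 1.12 ± 0.19 SE (adjusted p = 0.0142) and APC11 by 0.69 ± 0.16 SE (adjusted p = 0.0293), a share near the 10.9% of all genes. With centring 1 of them rose and with length bins 0. Spindle pole and nuclear pore genes had CDC31, centrin, with 890.5 and 1968 RPKM at 3 h, against 347, 724 and 778 RPKM at 1.5 h (log2 change 1.38 ± 0.16 SE, adjusted p = 0.00554), and TUB4, gamma-tubulin, which fell, at -0.88 ± 0.17 SE (adjusted p = 0.0195), out of 36. Iron regulon genes fell in 3 of 27 cases, among them TIS11, which degrades mRNAs of iron-using proteins, at -1.29 ± 0.20 SE (adjusted p = 0.0116). Phosphate and zinc genes fell in 2 of 21, among them the phosphate transporter PHO89, at -1.10 ± 0.24 SE (adjusted p = 0.0262). Purine and pyrimidine genes fell in 3 of 28, among them ADE3, at -1.02 ± 0.15 SE (adjusted p = 0.0113). Sterol and fatty acid genes had INO4 higher and ELO2 and ACC1 lower out of 36. Without parallel replicate 1 of 1.5 h, 6 sterol and fatty acid genes rose and 2 fell, 2 phosphate and zinc genes rose and 3 fell, and 1 iron gene rose and 5 fell.

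Without parallel replicate 1 of 1.5 h, calls over all tested genes grew from 660 to 1002 higher and from 204 to 288 lower. Central carbon metabolism and the translation machinery had few calls with all libraries, and more without that library. Of 23 genes of gluconeogenesis, glyoxylate and acetate use 0 passed in limma, with 5 at an unadjusted p under 0.05, and ADY2, the acetate permease and its most abundant member, had 87019 and 129511 RPKM at 3 h, against 67598, 69703 and 90803 RPKM at 1.5 h (log2 change 0.56 ± 0.25 SE, adjusted p = 0.172). Without that library 3 genes of this list rose and 5 fell, in glycolysis 1 rose and 2 fell, and in the tricarboxylic acid cycle 3 fell. With all libraries, in glycolysis PFK2 fell out of 22 genes, and in the tricarboxylic acid cycle ACO1, aconitase, out of 22, at -0.74 ± 0.19 SE (adjusted p = 0.0448) and -0.77 ± 0.19 SE (adjusted p = 0.0367). SGA1, the sporulation glucoamylase, rose out of 18 trehalose and glycogen genes by 0.84 ± 0.19 SE (adjusted p = 0.0291), a call lost with centring. Translation factors had SUI1 higher, by 1.35 ± 0.19 SE (adjusted p = 0.00953), and TEF4 lower, at -0.62 ± 0.15 SE (adjusted p = 0.0354), out of 38. Ribosome biogenesis had 3 of 65 higher and a median of -0.22 from all genes, and without parallel replicate 1, 7 rose and the median was -0.02. For the 138 ribosomal protein genes 2 rose and the median was 0.02 from all genes. Without parallel replicate 1 of 1.5 h, 52 rose and the median was 0.28, in a fit where calls grew over all genes too. The count in this group thus changed much with 1 library, and with all libraries and centring 0 rose. The list median was 0.25 from all genes in the course and -0.16 in the parallel table. The meiotic splicing list had SPO22 alone called out of 6, and MER1, the meiotic splicing activator, had a log2 change of 0.02.

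Ribosome footprints of the same times, from 3 libraries each, gave a second readout. In the limma fit of 5587 genes, 482 were higher (8.63%) and 630 lower (11.3%). With each footprint library centred on its median, 606 were higher and 471 lower, so which direction had more calls depends on centring. The counts below are from the fits without centring. Of 618 genes that rose in mRNA and were tested there, 217 (35.1%) rose in footprints and 11 fell, where 8.65% of genes tested in both assays rose. Of 201 genes that fell in mRNA, 144 (71.6%) fell in footprints and 0 rose, where 11.3% fell. NDT80 footprints rose by 3.46 (adjusted p = 0.00057), GMC2 by 3.07 (adjusted p = 0.00057) and SPO11 by 2.09 (adjusted p = 0.001). HOP1 and DMC1, which had not passed in mRNA, rose in footprints by 0.50 and 0.68 (adjusted p = 0.0286 and 0.0194), as did IME2, by 1.12 (adjusted p = 0.00645).

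Of genes tested in both assays, 8.65% rose and 11.3% fell in footprints. Footprints of the proteasome rose for 32 of 37 genes, of chaperones for 18 of 28. Those of the axis and synaptonemal complex rose for 8 of 10. Footprints fell for 21 of 43 replication genes, 8 of 10 histone genes and 9 of 10 arginine genes. Of 20 mating genes tested in footprints, 0 rose and 2 fell, unlike in mRNA. Other genes that moved in mRNA gave no called footprint change, among them CDC31 (0.41, adjusted p = 0.149), DAD3 (0.01, adjusted p = 0.971), SEC61 (-0.21, adjusted p = 0.438) and CLB2 (0.05, adjusted p = 0.904). Whether the mRNA and footprint changes of a gene differ was not tested. Leaving out 1 footprint library gave totals between 111 and 1696 called genes in place of 1112. The lowest came without parallel replicate 2 of 3 h and the highest without parallel replicate 1 of 1.5 h, and leaving out parallel replicate 1 of 3 h, the course library of 3 h or that of 1.5 h gave 220, 137 and 138.

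In total RNA, with 1 library per time and therefore no test, 570 of the 658 mRNA risers with a value (86.6%) lay above the median of all genes, and 203 of the 204 genes that fell lay below it. Their median changes relative to all genes were 0.48 and -0.73 on the log2 scale. NDT80 was 3.19 above the median, GMC2 3.08 and ZIP1 1.63. RNR1 was -1.29 and DPM1 -1.70 relative to it. Some short genes that rose in mRNA were not above the median in total RNA, such as DAD4 at -0.29 and DAD3 at -0.26.

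The Ndt80 induction experiment gave 1 induced and 1 uninduced library at 6 h and at 7.75 h, read as a description relative to the all-gene median. Of the 660 risers, 77 (11.7%) were at least 2-fold higher with induction at 6 h, where 7.5% of all genes were, and 18 at least 2-fold lower, where 3.03% were. At 7.75 h, 242 (36.7%) were higher, where 28.3% of all genes were, and 156 (23.6%) lower, where 23.1% were. Of the 204 genes that fell between 1.5 h and 3 h, 17 (8.33%) were higher with induction at 6 h and 9 (4.41%) lower. At 7.75 h 45 of them (22.1%) were higher and 31 (15.2%) lower. At 7.75 h GAS4 was 6.00 higher on the log2 scale, SMA1 7.32 and OSW1 6.20, and LDS2 was 4.56. Some prophase risers went the other way there: SPO11 was -3.42, ZIP1 -2.70 and GMC2 -2.31 relative to the median. Others moved less, with SAE3 at -0.96 and MEI5 at -0.99. The all-gene median at 7.75 h was itself -1.49, and the induced library of that time had only 2.62 M recovered reads.

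Later times of the course, with 1 library each, followed the same genes. Of the 660 risers, 0 had their highest course level at 1.5 h, 185 (28%) had it at 3 h, where 17.5% of all genes did, and 125 (18.9%) at 4.5 h, where 8.76% did. The highest level came at 6 h for 190 of them (28.8%), against 14.5% of all genes, and at 8 h for 140 (21.2%), against 21.7%. Only 20 (3.03%) had it at 10 h, against 9.72% of all genes. The course libraries of 3 h and 1.5 h entered the calls, so a riser is not highest at 1.5 h and a gene that fell is not highest at 3 h. Of all genes, 27.8% were highest at 1.5 h. The shares of risers at later times are therefore raised by the calling itself and cannot be compared directly with those of all genes. NDT80 went on to 2251 RPKM at 4.5 h, LDS1 to 7577 RPKM, GAS4 to 3339 RPKM and CWP1 to 23486 RPKM. SPO11 was at 536 RPKM at 4.5 h and 102 RPKM at 8 h, and ZIP1 at 950.2 and 226 RPKM. Of the 204 genes that fell, 170 (83.3%) had their highest course level at 1.5 h, where 27.8% of all genes did, a difference the calls favour. RNR1 was at 36.2 RPKM and PMT4 at 27.4 RPKM at 8 h. ILV5 was higher again later, at 2759 RPKM at 8 h.

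**Figure D5:**
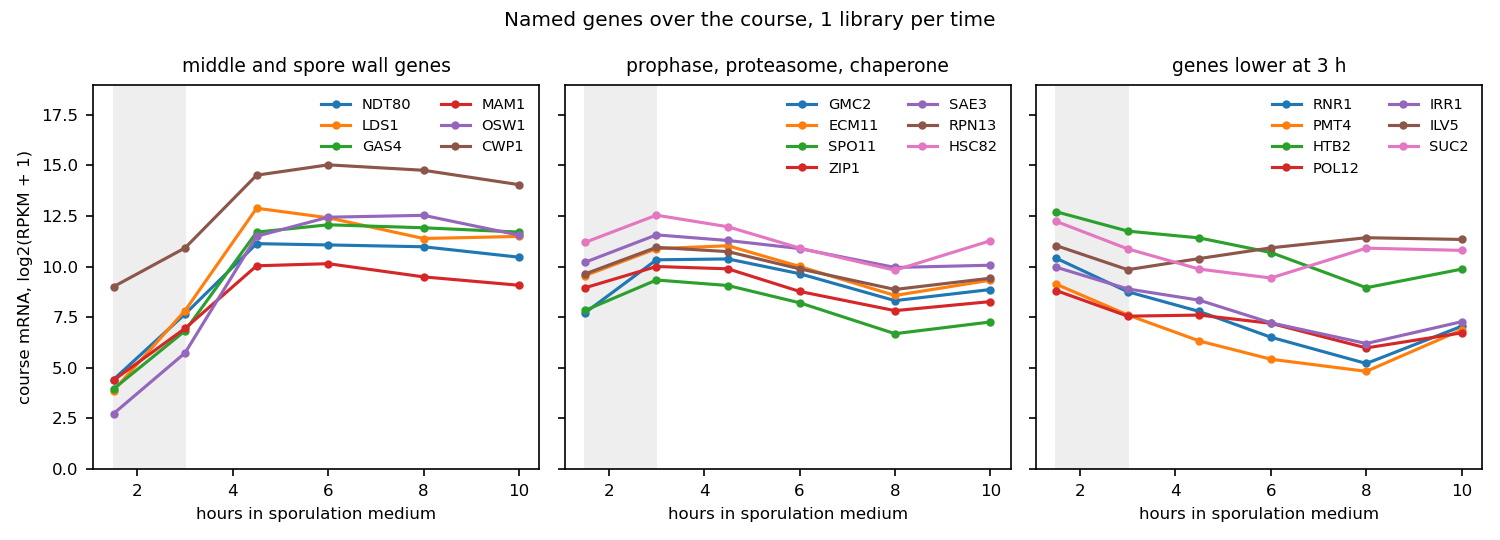
Course mRNA levels (y axis, log2(RPKM + 1)) of named genes over hours in sporulation medium (x axis), 1 library per time and no error, with the interval from 1.5 h to 3 h shaded. Middle and spore wall genes keep climbing to 4.5 h, where NDT80 reaches 2251 RPKM, and prophase genes are near their top at 3 h or 4.5 h. Most of the genes lower at 3 h are lower still at 8 h, though not ILV5 or SUC2.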

How the data were processed

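RPKM values are as deposited by the authors, per the file headers, for 6679 genes a table. The total RNA columns the authors deposited grow with gene length, so they were treated as a score and used only as ratios of 1 gene between libraries. The submitters' processing notes name CASAVA, bcl2fastq 2.17 and Bowtie2, with no role. Which build, annotation, counting tool and strand setting were used is not stated there. For 443 genes the names of the parallel table stand in another order, so those values were assigned by position (r of 0.954 to 0.978 with the course by position, against 0.137 to 0.182 by name in the mRNA libraries). Of the value columns 36 were left out, as were 5 lines that name no gene.

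Genes whose mean reached 5 RPKM were tested as log2(RPKM + 1), a scale that understates changes of low genes, with limma 3.58.1 in R 4.3.3 (trended prior, Benjamini-Hochberg adjusted p, threshold 0.05). The fit had a term for the table (course or parallel) and 7 libraries, the 5 compared and 2 parallel mRNA libraries of 6 h that add only to the estimate of the spread, with 3 residual degrees of freedom. Footprints, 6 libraries, were fitted in the same way. Reads were recovered from RPKM with the reference length less 60 bases, and 76.4 to 89.8% of the values up to 100 reads in the 5 libraries were whole within 0.02. The script was tested on simulated data. Reference names and lengths came from RefSeq for 5994 genes. Promoter and protein sequences were not used here, and the planned motif search was not run. Some genes of the lists are not reported here by name.

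The comparison and the 42 lists of genes, drawn from general knowledge, were chosen with earlier results of these data known. Named genes are the 12 largest rises and falls with a standard symbol, up to 4 called members of each list (or its most abundant member), the 4 largest differences between tables and 12 landmarks, and further members of the lists were added after their values were seen. Length bins and the crossed replicate block were chosen after seeing the data. Python 3.11.15, numpy 2.4.6, pandas 2.3.3 and matplotlib 3.10.9 did the rest.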

Additional observations from a re-analysis of the deposited data

How the results depend on the processing

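The counts of 660 higher and 204 lower genes (864 in all) stayed within 1.5 times with pseudocounts of 0.1 and 5 RPKM, a minimum mean of 20 RPKM, the 5 libraries alone, the course 6 h library added and parallel values taken by gene name. Without a filter on low values they were 376 and 73 (449 in all), which includes genes near 0 that enter the adjustment. Centring gave 332 higher, quantile normalization 428 and 397, length bins 285 and 321, and leaving the term for the table out 193 and 89 (282 in all). The parallel table alone gave 19 and 0 (19 in all), from 1 library against 2. Leaving out 1 library gave 12 to 1002 higher, 0 to 288 lower and 12 to 1290 in all. Where 1 library stands for a group, the fit takes its spread from the rest. For footprints the ranges were 61 to 750 higher, 50 to 946 lower and 111 to 1696 in all. Centring the footprint libraries gave 606 higher and 471 lower, in place of 482 and 630. The test of the difference between tables called 0 genes under each setting tried, but with so few degrees of freedom it could hardly call any.

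Samples of 1.5 h and 6 h share replicate numbers in the parallel table. The difference between replicates 1 and 2 at 1.5 h and that at 6 h had r = -0.107 across genes. With only 1 such difference per time, this cannot decide whether the numbers pair the libraries. With a replicate block 334 genes were higher and 97 lower (431 in all), and 73 and 77 (150 in all) when the libraries were also centred. With the 6 h numbers crossed, an alternative chosen after seeing the data, the block gave 1199 and 380 (1579 in all).

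By gene name 2 named genes changed sign, MET6 at 0.58 and HED1 at -0.15, since their names are among those out of order. Of the 42 list medians, 37 kept their sign relative to all genes under the 11 alternatives. Those of meiotic splicing (-0.11 to 0.17), kinetochore (-0.06 to 0.25), hexose (-0.12 to 0.04), respiratory (-0.26 to 0.07) and ribosomal protein genes (-0.16 to 0.28) did not. Depth was lowest for parallel replicate 2 of 1.5 h, at 2.19 M recovered reads, which limits genes of a few RPKM.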

Other observations

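Outside the 42 lists 540 genes rose and 119 fell, and the examples here were chosen after their values were seen. YGL138C, which has no standard name, had the largest rise of all tested genes that passed, with 76.7 and 66.2 RPKM at 3 h, against 5.13, 4.92 and 5.603 RPKM at 1.5 h (log2 change 3.53 ± 0.21 SE, adjusted p = 0.000339). YDL186W had 59.6 and 65.8 RPKM at 3 h, against 4.86, 11.1 and 8.85 RPKM at 1.5 h (log2 change 2.94 ± 0.22 SE, adjusted p = 0.000793). Both were several-fold higher in each 3 h library than in any 1.5 h library. In footprints they changed by 3.08 and 4.42 (adjusted p = 0.00716 and 0.00131). Among genes of mating and sporulation outside the lists, FIG1, a membrane protein of mating cells, rose by 2.01 ± 0.24 SE (adjusted p = 0.00609), and MUM3, needed for the spore wall, by 1.95 ± 0.25 SE (adjusted p = 0.00751).

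Further genes outside the lists fell. HCM1, a forkhead factor of S phase, had 225 and 175 RPKM at 3 h, against 535, 309.6 and 371 RPKM at 1.5 h (log2 change -1.08 ± 0.24 SE, adjusted p = 0.0272). STB1 and MSA2, which act with the G1/S transcription complexes, changed by -1.06 ± 0.16 SE (adjusted p = 0.0116) and -1.30 ± 0.21 SE (adjusted p = 0.0126). SIR2, the deacetylase of silent chromatin, had 83.1 and 62.1 RPKM at 3 h, against 186, 183 and 188 RPKM at 1.5 h (log2 change -1.39 ± 0.19 SE, adjusted p = 0.00809), with the 1.5 h libraries close together. CDC13, which caps telomeres, changed by -0.94 ± 0.25 SE (adjusted p = 0.0469), and RNH201, a subunit of the enzyme that removes ribonucleotides from DNA, by -1.15 ± 0.28 SE (adjusted p = 0.0329). Of the mannose donor pathway, which feeds the glycosylation genes described above, PMI40 and VRG4 changed by -1.01 ± 0.20 SE (adjusted p = 0.0209) and -0.97 ± 0.17 SE (adjusted p = 0.0156). PMA1, the proton pump of the plasma membrane, had 476 and 443 RPKM at 3 h, against 893, 1865 and 874 RPKM at 1.5 h (log2 change -1.26 ± 0.33 SE, adjusted p = 0.0433), and parallel replicate 1 was far above the other 1.5 h libraries.

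The 4 genes whose change differed most between the tables, none of which passed, were RPL41A, RPL41B, YLR286W-A and YBL071C-B. RPL41A and RPL41B encode the same very small ribosomal protein.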
